A study of Mus musculus with 20 samples.

Results

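The genes described are 10 of the 21450 gene symbols of a mouse whole-transcriptome probe panel: 9 enzymes that make or conjugate bile acids and Nr0b2, which encodes the repressor SHP and is not an enzyme. They were taken by symbol from the deposited probe table, in which 12 of the 30146 probes carry these names, since Cyp8b1 and Baat have a second probe each. All 12 probes passed the filter on low counts. Liver RNA came from 20 male Balb-C mice aged 10 to 12 weeks that were gavaged once a day for 7 days with Nafion BP2 (PFESA-BP2, a fluorinated ether sulfonic acid known as Nafion byproduct 2) at 0.03, 0.3, 3 or 6 mg/kg per day, or with vehicle alone (control, 0 mg/kg). Each group held 4 mice, and each library was made from 1 mouse by TempO-Seq, in which pairs of short oligonucleotides are ligated on their target RNA and counted by sequencing. Deionized water is given as vehicle in the protocols, whereas control titles say DMSO. The time of day at which the livers were taken is not given in the sources used here.

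Hepatocytes turn cholesterol into bile acids by a classical route, opened by Cyp7a1, and an alternative route, opened by Cyp27a1 and continued by Cyp7b1. Hsd3b7, Cyp8b1 and Akr1d1 then modify the sterol rings, and Cyp8b1 sets the share of cholic acid by adding the hydroxyl group that distinguishes it. Cyp27a1 and Amacr act on the side chain, and Slc27a5 and Baat attach an amino acid, mostly taurine in the mouse. Bile acids that return to the liver act on the receptor FXR, which induces Nr0b2, and SHP in turn represses Cyp7a1 and Cyp8b1 through the receptors LRH-1 and HNF4A.

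Promoter sequences are shown for Cyp8b1, Nr0b2 and Akr1d1, because these are the genes among the risers at 6 mg/kg for which the RefSeq promoter table of build GRCm38.p6 holds an entry; the table matched 5 of the 10 genes. Each is the 250 bases before the transcription start, 5′ to 3′ on the strand of the gene. Capitals mark every match, on either strand, to TCAAGG or CCAAGG, short sites of the kind bound by LRH-1, or to CAAAGTCCA, a site of the kind bound by HNF4A. These motifs were chosen after the sequences had been read. The Cyp8b1 window is chr9:121916306-121916555 on the minus strand, that of Nr0b2 is chr4:133553126-133553375 on the plus strand and that of Akr1d1 is chr6:37529923-37530172 on the plus strand.
Cyp8b1: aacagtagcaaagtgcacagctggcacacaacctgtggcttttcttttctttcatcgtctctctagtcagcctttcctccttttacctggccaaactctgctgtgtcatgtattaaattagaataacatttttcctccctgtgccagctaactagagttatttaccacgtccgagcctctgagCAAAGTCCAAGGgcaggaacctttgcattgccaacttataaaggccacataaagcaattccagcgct
Nr0b2: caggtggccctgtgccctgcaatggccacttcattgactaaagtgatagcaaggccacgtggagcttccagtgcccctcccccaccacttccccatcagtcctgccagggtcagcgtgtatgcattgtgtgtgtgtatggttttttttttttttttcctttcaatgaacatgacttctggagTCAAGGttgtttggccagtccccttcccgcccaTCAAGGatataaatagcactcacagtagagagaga
Akr1d1: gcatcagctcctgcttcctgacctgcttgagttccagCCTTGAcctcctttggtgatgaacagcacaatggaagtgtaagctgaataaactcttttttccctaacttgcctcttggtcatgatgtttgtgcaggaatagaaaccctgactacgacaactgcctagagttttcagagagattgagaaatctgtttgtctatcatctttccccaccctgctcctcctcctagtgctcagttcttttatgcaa

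In Cyp8b1 the CAAAGTCCA match at -67 to -59 overlapped the CCAAGG match at -61 to -56, counted from the start site. Nr0b2 held 2 TCAAGG matches, at -68 to -63 and at -35 to -30, and Akr1d1 held 1 on the reverse strand at -213 to -208. Of 32851 promoter windows of this length, 12.5% held TCAAGG, 18.2% held CCAAGG and 0.384% held CAAAGTCCA on either strand. The windows of Hsd3b7, which fell at 6 mg/kg, and of Cyp27a1, which was not called, held none of these letters. A match describes letters only.

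Library totals ran from 6823518 to 10310931 counts, so 3 counts corresponded to 0.251 to 0.510 CPM (counts per 1000000 counts of the scaled library). Replicate 4 at 3 mg/kg and replicate 4 at 6 mg/kg stood apart: 30.8% and 37.5% of tested probes had their highest or lowest value of all 20 libraries there, against 2.57% to 13.5% in the other 18. All control and 0.03 mg/kg libraries sat in plate row A and all 3 and 6 mg/kg libraries in row B, so that plate row and dose cannot be told apart for those doses against control, whereas 0.03 mg/kg against control and 6 against 3 mg/kg each lay within 1 row. The marker counts that follow are for 6 mg/kg against control, where the test described below called 10.9% of all genes higher and 9.64% lower. Each CPM range is a sum over all measured markers of a list, including those not tested. Hepatocyte markers summed to 24423 to 28207 CPM in controls and 17198 to 20834 CPM at 6 mg/kg, with 1 of 11 higher and 1 lower. At 6 mg/kg 5 of 10 pericentral markers were lower and 1 higher (sum 8734 to 11715 CPM in controls, 5035 to 6486 CPM at 6 mg/kg), and 3 of 9 periportal markers were lower (2210 to 2326 and 1583 to 1702 CPM). Of the markers of other cells, 1 of 8 for Kupffer cells was lower (sum 111.7 to 163 CPM in controls, 72.3 to 118.5 CPM at 6 mg/kg), 4 of 9 for stellate cells were lower and 1 higher (182 to 230 and 109 to 153 CPM), and 1 of 7 endothelial markers was higher (198 to 255 and 193 to 280 CPM). Of 5 tested lymphocyte and neutrophil markers 1 was higher and 1 lower (5.31 to 13.9 and 37.2 to 62.1 CPM). Their median log2 fold change was -0.13, so the rise of this sum was not shared across the markers. The only tested marker of bile duct cells was not called. The 8 measured ones summed to 24.5 to 32.0 CPM in controls and 22.2 to 33.1 CPM at 6 mg/kg. Epcam, Sox9, Sctr and Muc1 were at or under 3 counts in every library. Of 3 tested intestinal markers 1 was higher and 1 lower, with Fabp6, Fgf15, Lct and Sis at or under 3 counts in every library. The 8 measured ones summed to 2165 to 3715 CPM in controls and 1854 to 2533 CPM at 6 mg/kg. The share of each gene in this sum was not counted, so it cannot be read as gut RNA. Of 2 tested pancreatic markers 1 was higher and 1 lower (4.09 to 6.48 and 5.03 to 6.93 CPM), with Pnlip, Cpa1, Cela2a, Cela3b and Ctrb1 at or under 3 counts in every library. The part of these markers in the results below was not tested, and in bulk liver fewer cells of a type and less RNA per cell cannot be told apart.

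At 6 mg/kg, Cyp7a1, Cyp8b1, Akr1d1 and Nr0b2 rose, and Cyp7b1 and Hsd3b7 fell. These 6 of 10 genes passed edgeR's quasi-likelihood test at a Benjamini-Hochberg adjusted p under 0.05 over all 14122 tested probes, each gene being counted by its probe with the highest mean count. The same test called 20.5% of all 10097 genes so counted, 10.9% higher and 9.64% lower. In the 4 risers all dosed livers lay above all controls, as in 12.2% of all genes. In Cyp7b1 and Hsd3b7, and in Baat, all dosed livers lay below all controls, as in 14.7% of all genes. With plate row as a covariate 2 of the 10 were called, Cyp8b1 higher and Baat lower, and the other 5 calls were lost. The row term rested on the 0.3 mg/kg group alone, where only replicate 4 lay in row B. In that fit the SE of Cyp7a1 went from 0.84 to 1.67. The share of all genes called in it was not counted, so the lost calls cannot be read as particular to these genes. Without the covariate, Cyp27a1, Amacr, Slc27a5 and Baat were not called. The median log2 fold change was 0.12 over the 10 genes and -0.02 over all genes. The genes that moved came from the first step, the ring modifications, the alternative route and the repressor, while the side-chain enzymes and both conjugation enzymes were not called.

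**Figure D1:**
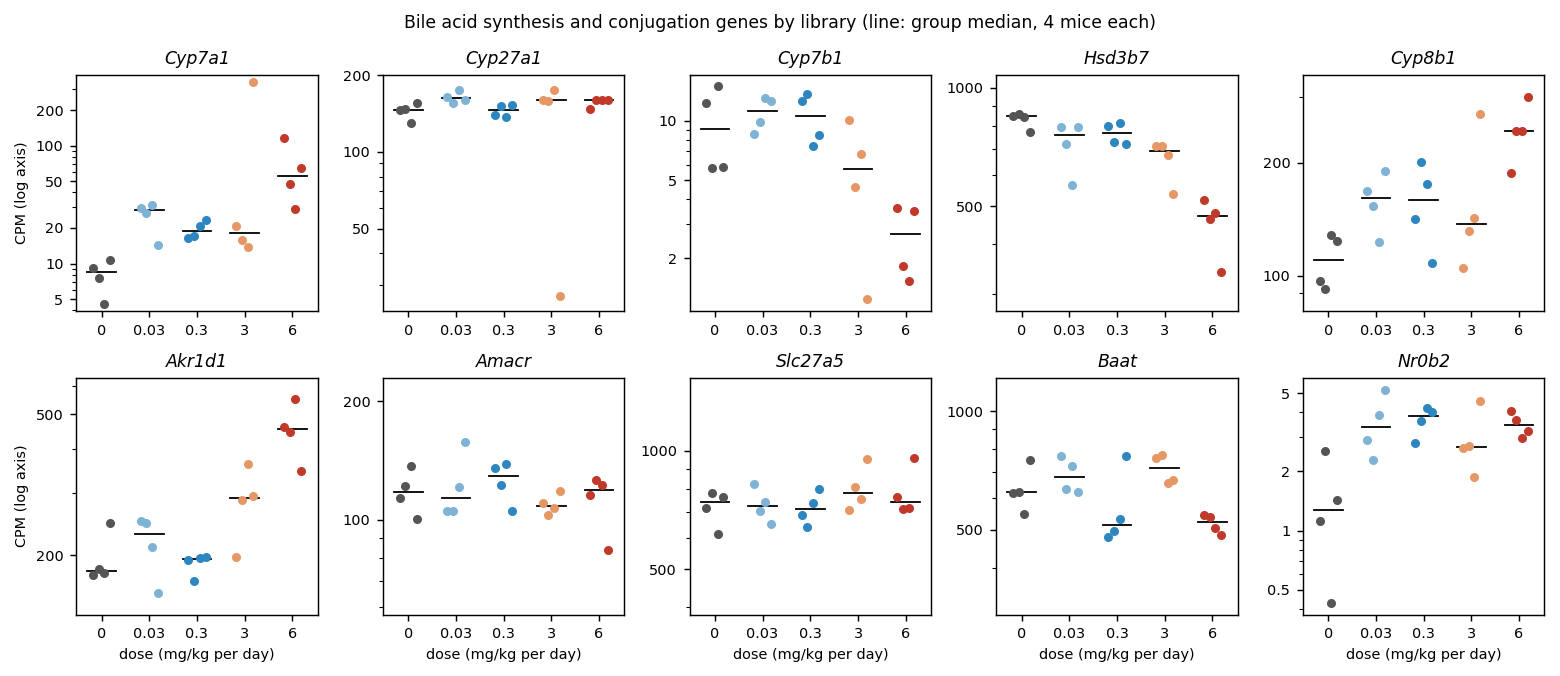
Level of the main probe of each of the 10 genes in CPM on a log axis, with its own range per panel, against dose in mg/kg per day; each point is 1 mouse and each line the median of 4. Cyp7a1 lay at 4.52 to 10.6 CPM in controls and at 28.8 to 116 CPM at 6 mg/kg, and the 1 library at 348 CPM is replicate 4 at 3 mg/kg, which also held the lowest Cyp27a1 level, 27.2 CPM.

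Cyp7a1, the rate-limiting enzyme of the classical route, lies at chr4:6265612-6275633 on the minus strand of GRCm38. Its 4 control livers held 9.22, 7.58, 4.52 and 10.6 CPM (74, 54, 42 and 82 counts). At 6 mg/kg the values were 116, 47.3, 28.8 and 63.9 CPM, all above every control, a log2 fold change of 3.01 (SE 0.84, adjusted p = 0.0172 in edgeR). Without control replicate 3, the lowest control, the log2 fold change was 2.81 and the adjusted p 0.0522, so that the call was lost. The level at 3 mg/kg was 20.7, 15.9 and 13.8 CPM in 3 livers and 348 CPM in replicate 4. The fit called this group higher, at a log2 of 3.65 (SE 0.86, adjusted p = 0.0373 in edgeR), but without replicate 4 the log2 fold change was 1.08 (adjusted p = 0.308), and the call was also lost on leaving out control replicate 1, 2, 3 or 4, where the adjusted p lay between 0.0994 and 0.123. Of all genes, 1.54% were called at 3 mg/kg, 1.13% being higher, and 3.44% lay wholly above the controls; Cyp7a1 was the only one of the 10 in each.

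The lower doses held Cyp7a1 above the controls as well, without a call. At 0.03 mg/kg the livers held 29.7, 26.8, 31.4 and 14.3 CPM, a log2 fold change of 1.68 (SE 0.82, unadjusted p = 0.0551). At 0.3 mg/kg they held 16.3, 17.2, 20.6 and 23.4 CPM, a log2 of 1.28 (SE 0.82, unadjusted p = 0.134). The dosed and control livers did not overlap at either dose. Among all genes, 1.69% lay wholly above the controls at 0.03 mg/kg and 3.17% at 0.3 mg/kg. Cyp7a1 was the only 1 of the 10 genes in which all 16 dosed livers lay above all 4 controls, an arrangement found in 0.129% of all genes. It was picked out after the values had been seen, and since all 4 doses share the same 4 controls, these comparisons are not independent. The group means did not rise step by step with dose: 7.99 ± 2.62 CPM in controls, 25.5 ± 7.73 at 0.03, 19.4 ± 3.23 at 0.3 and 64.0 ± 37.6 at 6 mg/kg (SD, n = 4 each), with 99.5 ± 166 CPM (SD, n = 4) at 3 mg/kg and 16.8 ± 3.56 CPM (SD, n = 3) there without replicate 4.

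**Figure D2:**
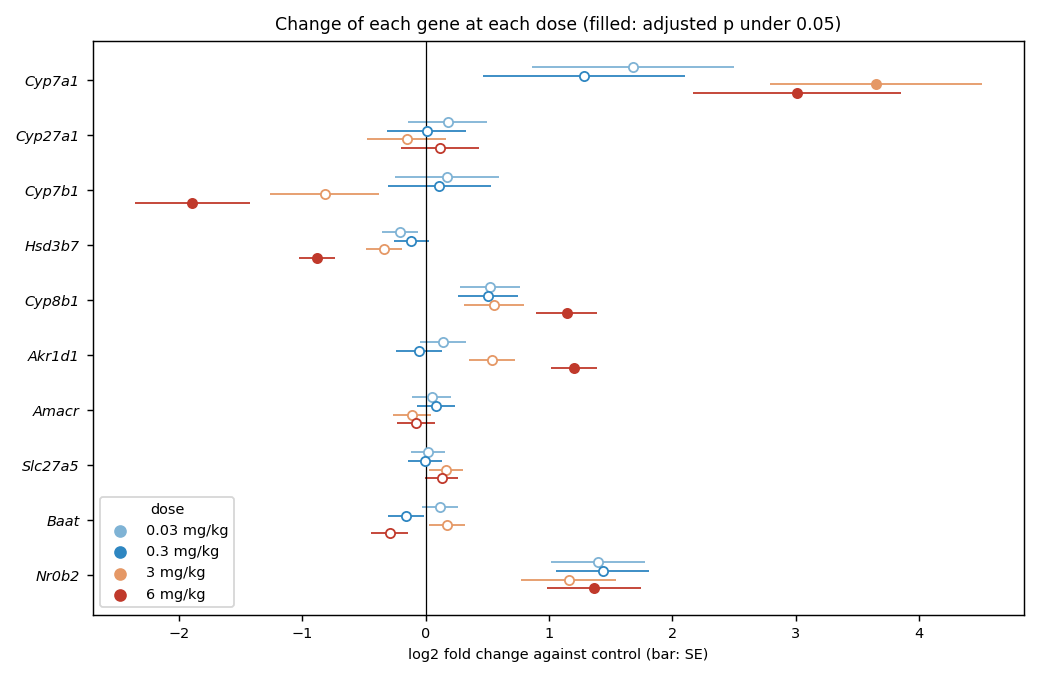
Log2 fold change of each gene against control at each dose, with its SE from the edgeR fit on 20 libraries; filled points passed at an adjusted p under 0.05. Filled points appear at 6 mg/kg for 6 genes and at 3 mg/kg for Cyp7a1 alone.

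Cyp27a1, the mitochondrial enzyme that opens the alternative route and also oxidizes the side chain in the classical one, lies at chr1:74713574-74737892 on the plus strand. It was the steadiest of the genes apart from 1 library. Controls held 145, 147, 130 and 156 CPM, and the 6 mg/kg livers held 148, 159, 160 and 160 CPM, overlapping ranges with a log2 fold change of 0.12 (SE 0.32, adjusted p = 0.822 in edgeR). Across 19 of the 20 livers the level stayed between 130 and 175 CPM. Replicate 4 at 3 mg/kg held 27.2 CPM, against 160, 159 and 175 CPM in the other 3 livers of its group.

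Cyp7b1, the hydroxylase that follows Cyp27a1 in the alternative route, lies at chr3:18071950-18243338 on the minus strand and was measured at 13 to 139 counts. The controls held 12.3, 5.76, 15.0 and 5.83 CPM and the 6 mg/kg livers 3.59, 1.82, 1.53 and 3.49 CPM. All 4 dosed livers lay below every control, at a log2 fold change of -1.89 (SE 0.47, adjusted p = 0.00721 in edgeR). At 3 mg/kg the livers held 10.1, 4.61, 6.80 and 1.24 CPM, the last being replicate 4, and the group overlapped the controls. The lower doses held 7.44 to 13.7 CPM and also overlapped them.

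Hsd3b7, the dehydrogenase that starts the ring changes after the first hydroxylation, lies at chr7:127800604-127803802 on the plus strand. Its controls held 850, 860, 842 and 773 CPM and the 6 mg/kg livers held 519, 465, 480 and 340 CPM. The groups did not overlap, and the log2 fold change was -0.88 (SE 0.14, adjusted p = 0.000208 in edgeR). At 3 mg/kg the livers held 710, 712, 675 and 538 CPM, all below the controls, but the log2 fold change of -0.34 (SE 0.14) was not called (adjusted p = 0.346); 4.59% of all genes lay wholly below the controls at that dose.

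Cyp8b1, which makes cholic acid possible, lies at chr9:121914356-121916305 on the minus strand, and the overlapping CAAAGTCCA and CCAAGG letters shown above stand shortly before its start. Its main probe read 97.0, 92.4, 128 and 124 CPM in controls and 188, 244, 244 and 299 CPM at 6 mg/kg, without overlap, a log2 fold change of 1.14 (SE 0.25, adjusted p = 0.00263 in edgeR). The second probe, with fewer counts, read 12.7, 12.2, 16.6 and 16.2 CPM in controls and 40.1, 48.5, 46.9 and 47.5 CPM at 6 mg/kg, a log2 of 1.66 (SE 0.37, adjusted p = 0.00386). The 2 probes thus moved in 1 direction at that dose. At 0.03, 0.3 and 3 mg/kg the main probe stood at log2 fold changes of 0.52, 0.50 and 0.55 (SE 0.25 each), none of them called. The second probe stood at 0.81, 0.73 and 1.06 (SE 0.37 each), also without a call. At 0.03 mg/kg it read 21.9 to 32.2 CPM, above all controls, whereas the main probe overlapped them. By their main probe, 1.69% of all genes lay wholly above the controls at that dose. In replicate 4 at 3 mg/kg both probes were at the top of the group, at 270 and 65.7 CPM, against 105 to 142 CPM and 13.9 to 23.8 CPM in the other 3, and without it the log2 fold change of the main probe at 3 mg/kg was 0.20.

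Akr1d1, the reductase that gives the sterol rings their bent shape, lies at chr6:37530173-37568815 on the plus strand. Controls held 176, 183, 178 and 247 CPM and the 6 mg/kg livers 461, 444, 551 and 346 CPM. The groups were apart, with a log2 fold change of 1.20 (SE 0.19, adjusted p = 0.000132 in edgeR), the smallest adjusted p of the 10 genes. The 3 mg/kg livers held 197, 287, 363 and 294 CPM and overlapped the controls, at 0.54 (SE 0.19, adjusted p = 0.199). That value was 0.71 and passed without replicate 1 of the group (adjusted p = 0.0426).

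Amacr, the racemase that prepares the side chain, was not called at any dose. Its levels ran from 83.8 to 157 CPM over all 20 livers, and the log2 fold change at 6 mg/kg was -0.08 (SE 0.16, adjusted p = 0.753 in edgeR). It lies at chr15:10981756-10996626 on the plus strand.

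Slc27a5, the ligase that activates bile acids with coenzyme A, lies at chr7:12988346-12998192 on the minus strand, and Baat, the transferase that then joins them to an amino acid, at chr4:49489422-49506557 on the minus strand. Slc27a5 read 715, 783, 614 and 764 CPM in controls and 761, 710, 717 and 957 CPM at 6 mg/kg, at 0.13 (SE 0.14, adjusted p = 0.524 in edgeR). Baat read 619, 623, 547 and 750 CPM in controls and 544, 539, 506 and 485 CPM at 6 mg/kg. The dosed livers all lay below the controls, a place shared by 14.7% of all genes at this dose, and the log2 fold change of -0.29 (SE 0.15) was not called (adjusted p = 0.163). The second Baat probe held only 4 to 19 counts and was at 0.16 (SE 0.34).

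Nr0b2 lies at chr4:133553376-133556536 on the plus strand, directly after the window shown above, and was measured at 4 to 50 counts. The controls held 1.12, 2.53, 0.430 and 1.43 CPM, from 9, 18, 4 and 11 counts. The 6 mg/kg livers held 4.07, 3.65, 2.95 and 3.19 CPM, all above the controls, a log2 fold change of 1.36 (SE 0.38, adjusted p = 0.0152 in edgeR). Without control replicate 3, whose 4 counts are near the floor of 3, the value was 1.04 and missed the threshold (adjusted p = 0.0522). Nr0b2 stood at about the same fold at every dose. All doses share the same controls, at 4 to 18 counts, so these folds are not independent. The log2 fold change was 1.40 (SE 0.38, unadjusted p = 0.00137) at 0.03 mg/kg, with 2.88, 2.28, 3.87 and 5.2 CPM, and 1.44 (SE 0.38, unadjusted p = 0.00101) at 0.3 mg/kg, with 2.77, 3.61, 4.18 and 4.02 CPM. Neither passed over all probes (adjusted p = 0.417 in edgeR at 0.3 mg/kg and close to 1 at 0.03 mg/kg), and at 0.03 mg/kg 1 dosed liver lay below the highest control. At 3 mg/kg it was at 1.16 (SE 0.39, adjusted p = 0.175).

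At the lower doses the test called 0 of the 10 genes and 0% of all genes, at 0.03 mg/kg as at 0.3 mg/kg. With an unadjusted p under 0.05 there were 2 of the 10 at 0.03 mg/kg, Cyp8b1 and Nr0b2, where 3.25% of all genes were, and 1 at 0.3 mg/kg, Nr0b2, where 8.67% were. DESeq2 and limma-voom called 0 of the 10 at both doses.

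**Figure D3:**
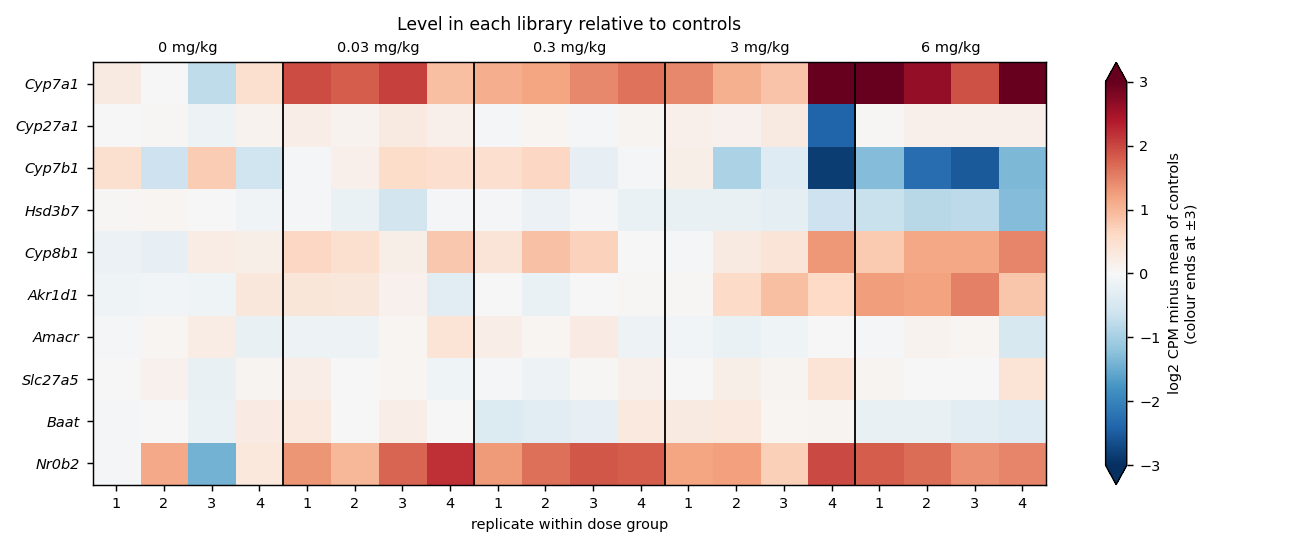
Log2 CPM of each gene in each of the 20 libraries minus the mean of the 4 controls, libraries in columns by dose and replicate, with colours ending at 3 in either direction. Nr0b2 and Cyp7a1 are red across the dosed livers, Cyp7b1 turns blue at 6 mg/kg, and replicate 4 at 3 mg/kg is the only library with low Cyp27a1, at 27.2 CPM.

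Comparing 6 with 3 mg/kg, both from plate row B, Akr1d1 was higher by a log2 of 0.66 (SE 0.19, adjusted p = 0.0374 in edgeR) and Hsd3b7 lower at -0.55 (SE 0.14, adjusted p = 0.0267), and these were the only calls among the 10 where 6.96% of all genes were called (3.77% higher, 3.19% lower). Both calls were lost without replicate 1 or 2 at 3 mg/kg or replicate 2 at 6 mg/kg, and that of Akr1d1 without replicate 1 or 3 at 6 mg/kg. Replicate 4 at 3 mg/kg moved the outcome most. Cyp7a1 stood at -0.64 (SE 0.76) with that library and at 1.94 (SE 0.39, adjusted p = 0.00242) without it. Without it 6 genes passed, with Cyp8b1 at 0.97 and Akr1d1 higher, and Cyp7b1 at -1.41, Baat at -0.48 and Hsd3b7 lower. The share of all genes that passed without it was not counted, so these 6 cannot be set against it. A slope over the rank of the 5 doses called 5 genes, where 17.8% of all genes were called (10.6% higher, 7.24% lower): Cyp7a1 at 0.83 (SE 0.21), Akr1d1 at 0.28 (SE 0.05) and Cyp8b1 at 0.23 (SE 0.06) log2 units per dose step, and Cyp7b1 at -0.45 (SE 0.12) and Hsd3b7 at -0.19 (SE 0.04). Nr0b2, which was as high at 0.03 as at 6 mg/kg, had a slope of 0.19 (SE 0.10) and was not called.

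Ratios of probe counts within a library show how pairs of steps shifted without any scaling between libraries. The log2 ratio of Cyp8b1 to Cyp7b1 was 2.97, 3.99, 3.10 and 4.39 in controls and 5.69, 7.02, 7.26 and 6.40 at 6 mg/kg. That of Cyp7a1 to Cyp27a1, the openings of the 2 routes, was -3.97, -4.26, -4.83 and -3.86 in controls and -0.35, -1.75, -2.47 and -1.32 at 6 mg/kg. Both sets were apart, by 2.98 and 2.76 log2 units. The ratio of Baat to Slc27a5, the 2 conjugation steps, went from -0.21, -0.33, -0.17 and -0.03 to -0.48, -0.40, -0.50 and -0.98, a difference of -0.41, although neither gene was called by itself. Each of the 3 differences had an exact two-sided permutation p of 0.0286 over 4 against 4 libraries, the smallest that this design allows, and 0.0286 after adjustment over the 3. For Cyp8b1 to Cyp7b1 this p restates the separate levels of the 2 genes and adds no evidence, since every 6 mg/kg liver was above all controls for Cyp8b1 and below all for Cyp7b1. The p for Cyp7a1 to Cyp27a1 likewise restates the Cyp7a1 levels and adds no evidence. Cyp7a1 was at 28.8 to 116 CPM at 6 mg/kg against 4.52 to 10.6 CPM in controls. Cyp27a1 stayed between 130 and 160 CPM in both groups. At 0.03 and 0.3 mg/kg the Cyp8b1 to Cyp7b1 ratio (3.23 to 4.56) overlapped the controls, while that of Cyp7a1 to Cyp27a1 (-3.48 to -2.47) lay above them. The Baat to Slc27a5 ratio was -0.52, -0.37, -0.47 and -0.06 at 0.3 mg/kg and ran from -0.51 to 0.11 at 3 mg/kg. Both groups overlapped the controls but reached values seen at 6 mg/kg, so low ratios were not particular to that dose. Baat by itself already lay below all controls at 6 mg/kg. Without replicate 4 at 6 mg/kg the difference was -0.28.

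**Figure D4:**
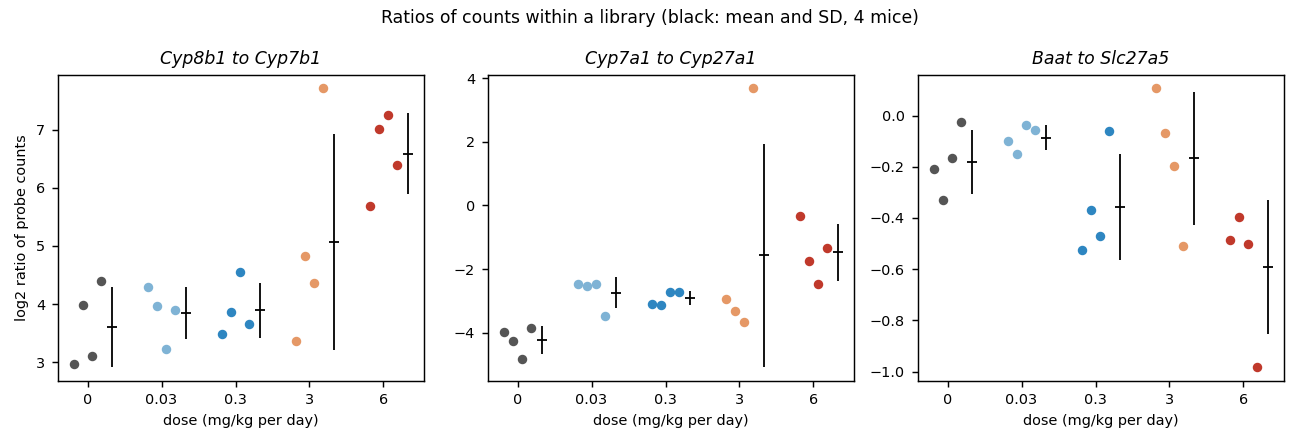
Log2 ratio of the main probe counts of 3 gene pairs in each library against dose in mg/kg per day; points are mice, and black marks the mean and SD of 4. At 6 mg/kg all points lie above the controls for the first and second pair and below them for the third, and replicate 4 at 3 mg/kg is the highest point for the first and second, at 7.71 and 3.67.

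Replicate 4 at 3 mg/kg held the highest Cyp7a1 level of all 20 libraries and the lowest Cyp27a1 and Cyp7b1 levels, an extreme in 3 of the 10 genes where 30.8% of all tested probes were at one. Replicate 4 at 6 mg/kg held an extreme in 4, the lowest Hsd3b7 and Amacr and the highest Cyp8b1 and Slc27a5 levels, where 37.5% of probes were at one. Other bile acid genes, chosen here after their values were seen, were also far from the rest in the 3 mg/kg liver: Cyp2c70, which makes the muricholic acids of mice, was at 78.8 CPM against 2136 to 7869 CPM in the other 19, and Abcb4, the phospholipid exporter of bile, was at 0.286 CPM, which is 1 count, against 12.5 to 24.9 CPM. Of 55 tested genes in the pathway lists described next, 10 were below and 7 above the range of the other 19 libraries there, a share near the 30.8% of all tested probes. Of the clock genes, Dbp, at 42.7 CPM, and Nr1d1, at 25.4 CPM, lay within that range, and Nr1d2, at 37.7 CPM, lay above its range, which ended at 31.7 CPM. Whether this library differs by treatment, animal or handling was not tested.

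Other genes of bile acid handling at 6 mg/kg are given from lists chosen with earlier results known, and their counts stand beside the 20.5% of all genes called at that dose. Of 12 tested further enzymes of synthesis and modification, 2 were higher and 1 lower, a share near that of all genes. Acnat2, an acyltransferase related to Baat, was at 0.77 (SE 0.18) and Hsd17b4, a peroxisomal enzyme of side-chain shortening, at 0.58 (SE 0.17), and both rose, whereas Sult2a8, a bile acid sulfotransferase of mouse liver, was lower, at -1.47 (SE 0.21). Cyp2c70 at -1.46 (SE 0.63), Akr1c6 at -0.61 (SE 0.23) and Acox2, the peroxisomal oxidase of bile acid side chains, at 0.38 (SE 0.16) did not pass. Cyp2c70 nonetheless held 5831 to 7869 CPM in controls and 2136 to 2866 CPM at 6 mg/kg. Such a place wholly below the controls was shared by 14.7% of all genes. Its SE comes from a fit that includes the 3 mg/kg library at 78.8 CPM, and the part of that library was not tested. The list's median was -0.06.

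Of 13 tested transporters, 4 were higher and 4 lower (median -0.06). The exporters Abcc3 at 2.60 (SE 0.47) and Abcc4 at 2.58 (SE 0.36) of the blood side and Abcc2 at 1.53 (SE 0.21) of the bile canaliculus rose. Abcc4 was near the floor of 3 counts in controls, at 0.623 to 1.26 CPM, and held 2.16 to 7.42 CPM at 6 mg/kg. Slc51b, a subunit of the basolateral exporter and a known FXR target, was lower at -1.66 (SE 0.44), as were Slco1b2, an uptake carrier, at -0.95 (SE 0.22), and Atp8b1, a canalicular lipid flippase, at -0.70 (SE 0.20). The main pump of bile acids into bile, Abcb11, at -0.06 (SE 0.14), and the main uptake carrier, Slc10a1, at 0.06 (SE 0.13), were not called; these 2 are named for their known role and not by the rule.

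Of 18 regulators of Cyp7a1 and Cyp8b1, 1 was higher and 4 lower (median -0.25). Among all genes 10.9% were higher and 9.64% lower (median -0.02), so the calls in this list leaned lower. Nr1i2, the xenobiotic receptor PXR, rose by 0.75 (SE 0.18), while Ppargc1a, a coactivator of fasting, was lower at -1.46 (SE 0.26), Ppara at -0.81 (SE 0.17) and the clock genes Nr1d1 and Dbp at -1.61 (SE 0.43) and -2.20 (SE 0.68). Nr5a2, which encodes LRH-1, at 0.80 (SE 0.44) and Mafg at 0.32 (SE 0.19) did not pass, nor did Nr1h4, which encodes FXR and is named for its role, at -0.20 (SE 0.13). Of 14 tested clock genes, 2 of them also in the list of regulators, 1 was higher, which is not reported here, and 4 were lower (median -0.31). Bhlhe40 at -1.15 (SE 0.24), Nr1d2 at -1.05 (SE 0.24), Nr1d1 and Dbp fell, while Nfil3 at 0.57 (SE 0.20) and Npas2 at 0.41 (SE 0.52) did not pass. Cyp7a1 is known to follow the clock through Dbp, an activator, and Nr1d1; Dbp was at 35.5 ± 20.2 CPM in controls and 7.75 ± 6.71 CPM at 6 mg/kg (SD, n = 4 each), and its part in the Cyp7a1 result was not tested. Dbp is named for its known role and not by the rule.

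**Figure D5:**
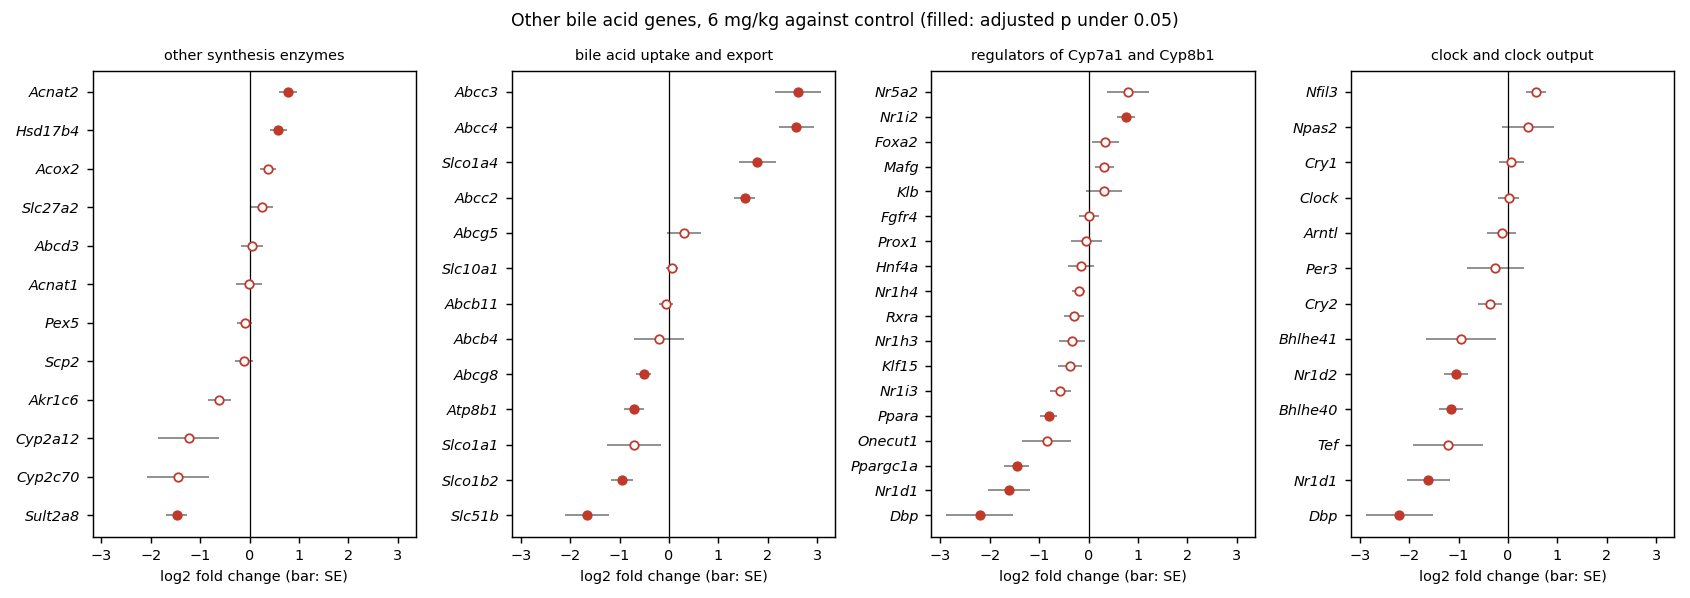
Log2 fold change at 6 mg/kg against control, with SE, for tested genes of 4 pathway lists; filled points passed at an adjusted p under 0.05. The exporters Abcc3 and Abcc4 lie furthest to the right, at 2.60 and 2.58, and Dbp furthest to the left, at -2.20.

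The probes whose pattern over the 20 libraries was most like that of Cyp7a1, by the root mean square difference of centred log2(CPM + 0.5), belonged to 1300017J02Rik at 0.73, Acsm2 at 0.77 and Coq6 at 0.78, where the spread of Cyp7a1 itself was 1.34. For Cyp8b1, with a spread of 0.48, they included Gnas at 0.17 and Atp9a at 0.17. For Nr0b2, with a spread of 0.61, they were Arhgap32 and Ntn4 at 0.41 each and Herc2 at 0.44, all at low levels of 0.914 to 4.96 CPM.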

How the data were processed

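Whole-number counts per TempO-Seq probe were deposited for each mouse, without scaling. Bowtie and build GRCm38.p5 appear in the list of tools, per the submitters' processing notes. The Bowtie version is not given in the sources used here. Probe positions were not used, and gene coordinates are from GENCODE M21 on GRCm38. No copy was found among libraries of a group (lowest chi-square over degrees of freedom 3.66 in 30 pairs). Probes were kept by filterByExpr in edgeR 4.0.16 under R 4.3.3, libraries were scaled by trimmed means of M values (TMM), and a robust quasi-likelihood model took in all 20 libraries, with group means as coefficients or with dose rank as a number for the slope. Benjamini-Hochberg adjustment ran across all 14122 tested probes. SE is the log2 fold change divided by the root of the F statistic. Log2 ratios used a prior of 0.5 counts. Every adjusted p is from edgeR unless DESeq2 1.42.0 or limma-voom (limma 3.58.1) is named. The fit was checked on simulated counts.

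The members and lists were chosen with earlier results of these data known. The rule for named genes takes all 10 members, from each list at most 3 higher and 3 lower genes of smallest p at 6 mg/kg, and the 3 probes most like Cyp7a1, Cyp8b1 and Nr0b2; exceptions are marked, and some results that the rule takes in are not reported here. Alternatives were other scalings, tools and filters, summed probes, fits on 8 libraries, plate row as a covariate, and libraries left out. Replicates were numbered in accession order and pair nothing. The floor of 3 counts covers counting error only.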

Additional observations from a re-analysis of the deposited data

Results flagged for a closer look

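In 60 groups of 4 libraries (12 probes in 5 dose groups), 1 library lay far from the other 3 in 5 cases by Dixon's criterion, where chance gives about 1 in 20. Replicate 4 at 3 mg/kg gave 2 of them: Cyp7a1 at 347.7 CPM against 13.8 to 20.7 CPM, and Cyp27a1 at 27.22 CPM against 159 to 175 CPM. Cyp27a1 was also low in replicate 1 at 6 mg/kg, at 147.5 CPM against 159 to 160 CPM, a narrow gap in a tight group. Akr1d1 was high in control replicate 4, at 246.8 CPM against 176 to 183 CPM, and low in replicate 2 at 0.3 mg/kg, at 169.3 CPM against 194 to 197 CPM.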

How the results depend on the processing

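No paired analysis was possible because the groups hold different mice, and the labels link none of them across groups. The share of all genes called was not counted for the alternative fits, so their counts of members have no such share beside them. At 0.03 and 0.3 mg/kg 0 members were called under every alternative run. At 6 mg/kg against control 6 members were called, 4 to 6 with 1 library left out, and 2 with plate row as a covariate (Cyp8b1 and Baat); that term is estimated from the 0.3 mg/kg group alone, and the SE of Cyp7a1 then went from 0.84 to 1.67. Cyp8b1 passed in all 17 alternatives there, at 1.01 to 1.82, Akr1d1, Cyp7b1 and Hsd3b7 in 16, Nr0b2 in 15 and Cyp7a1 in 14; Cyp7a1 was also lost with no filter on low counts (adjusted p = 0.0616). At 3 mg/kg the single call, Cyp7a1, gave way to 0 with limma-voom, with no filter, without both libraries that stand apart, with the 8 libraries alone and with plate row, and the count was 0 to 2 with 1 library left out; the cause was not tested. For 6 against 3 mg/kg 2 members were called, 1 with scaling by total counts alone, 0 with the 8 libraries alone, 6 without both libraries that stand apart, and 0 to 6 with 1 library left out. Cyp7a1 in that comparison was at -0.64, and changed direction to 1.94 without replicate 4 at 3 mg/kg and 1.93 without both, the range with 1 library left out being -1.10 to 1.94. The slope called 5 members, 5 with any 1 library left out and 2 with plate row. The ratio differences at 6 mg/kg kept their direction, at 2.76 to 3.28 for Cyp8b1 to Cyp7b1, 2.38 to 3.09 for Cyp7a1 to Cyp27a1 and -0.47 to -0.28 for Baat to Slc27a5 with 1 library left out, where 4 against 3 allows no p under 0.0571. Depth limits Nr0b2, at 4 to 50 counts, and Cyp7b1, at 13 to 139.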
